A study of Homo sapiens with 12 samples.

Results

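HCT116 cells that carry 5xA mutant AGO2 were compared with AGO2 knockout cells, to see which transcripts changed when the mutant protein was put back. The comparison takes in every gene of the authors' deposited table for FH-5xA against knockout, which is 15074 of the 15074 genes measured in the series, with no selection by value. All cells were HCT116, a human colorectal carcinoma line. The knockout group had the genotype AGO2_KO, and the mutant group, FH-AGO2_5xA, was the knockout reconstituted with AGO2 that bears an FH tag and the 5xA mutation. Both groups carry the knockout by their labels, protein was not analysed here, and they are called knockout and FH-5xA. Parental HCT116 cells and knockout cells with tagged wild-type AGO2, genotype FH-AGO2_WT and called FH-WT here, are used where they help to place a level. Each of the 4 groups had 3 libraries of ribosomal-RNA-depleted total RNA, from wells seeded with 500000 cells and collected after 48 h. The labels do not say whether a line is 1 clone or what promoter drives the transgene, so p-values reflect how far wells of a single line differ.

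Argonaute proteins hold a microRNA and use its seed, bases 2 to 8, to find matching sites in the 3′ untranslated region (UTR) of mRNAs. A bound Argonaute recruits GW182 scaffold proteins (TNRC6A, TNRC6B and TNRC6C), which bring in deadenylation and decapping enzymes, so that a silenced mRNA is translated less and decays faster. AGO2 is also phosphorylated on a C-terminal cluster of serine and threonine residues by casein kinase 1 alpha (CSNK1A1) after it engages a target, and is dephosphorylated by the ANKRD52 and PPP6C phosphatase complex. In 5xA, 5 residues of that cluster are replaced by alanine and cannot be phosphorylated.

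With FH-5xA, interferon-stimulated genes, p53 targets, mesenchymal genes and textbook targets of the miR-17 family held the most called falls among the gene lists, while genes of the ATF4 response and of cholesterol synthesis held the most called rises. In that order, the list medians of the log2 fold change were -0.37, -0.13, -0.30 and -0.20, then 0.19 and 0.16. For FH-WT over the same knockout the medians were -0.35, -0.14, -0.14 and -0.22, then 0.25 and 0.07. Of the 15074 genes, 1699 (11.3%) had a false discovery rate under 0.05 in the edgeR likelihood ratio test of the authors' deposited table, and such genes are referred to as called. Of these, 759 (5.04%) were higher with FH-5xA and 940 (6.24%) were lower. Changes were mostly small: 85 called genes changed at least 2-fold, 53 up and 32 down, and the median log2 fold change was 0.50 for genes called higher and -0.36 for genes called lower. The median over all genes was 0.0075. The median standard error (SE) of a fold change, derived from the deposited score, was 0.118, and it ran from 0.251 for genes with mean expression under 1 on the log2 scale of CPM, counts scaled to library size, to 0.0841 for genes at 6 or above. Levels below are fitted group levels in CPM, computed from the deposited mean and fold changes, since no value per library was used. The score was read against a chi-square distribution. Read against an F distribution with 1 and 8 degrees of freedom, which leaves the score as it is and asks more of it, 92 genes were called, 12 higher and 80 lower. Under it p53 targets, miR-17 targets, ATF4 response genes and cholesterol synthesis genes had 0 called members, mesenchymal genes had 1 rise and 0 falls, and interferon-stimulated genes had 7 falls.

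**Figure D1:**
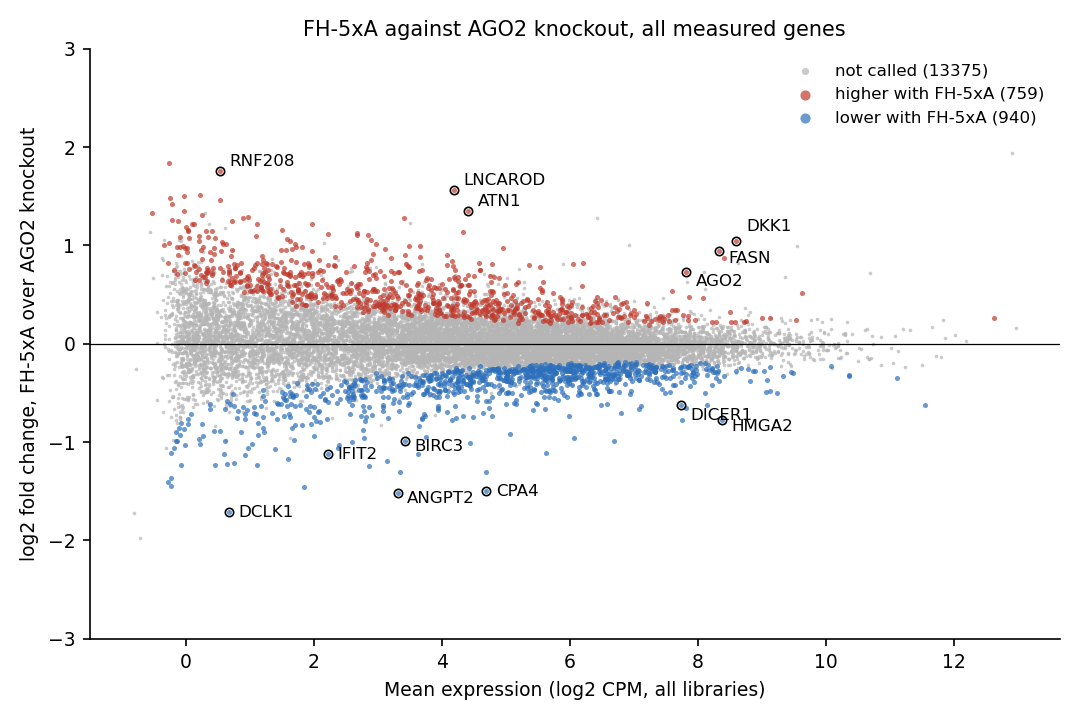
Each point is 1 gene, with mean expression (log2 CPM) on the x axis and the log2 fold change of FH-5xA over AGO2 knockout on the y axis; red points are the 759 genes called higher, blue points the 940 called lower and grey points the rest. Most called genes lie within 1 log2 unit of 0, AGO2 itself is at 0.73, and 2 genes above 3 are outside the axis.

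HCT116 identity was read from colon epithelial markers. EPCAM, KRT8, KRT18, KRT19, CDX2 and CDH1 were measured and none was called, while KRT20, CDX1, VIL1, CEACAM5, LGALS4 and CDH17 were not among the measured genes. EPCAM stood at 261 CPM in the knockout and 284 CPM in FH-5xA, and KRT18 at 539 and 497 CPM. Markers of other cell types were mostly unmeasured: of the blood list 0 of 11 were present, of the endothelial list 1 of 9, of the fibroblast list 3 of 12 and of the neural or kidney list 5 of 13. Of these, the fibroblast collagen COL1A1 and the developmental factors PAX2 and PAX6 were called higher, all at fitted levels under 5 CPM in FH-5xA. RNAs of the mitochondrial genome made up 1.29% of the fitted total in the knockout and 1.99% in FH-5xA, and 0 of the 15 listed were called (median log2 fold change 0.63).

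AGO2 mRNA (ENSG00000123908, chromosome 8, 140520156 to 140635619, GRCh38) was 161 CPM in the knockout and 267 CPM in FH-5xA, beside 205 CPM in parental cells and 270 CPM in FH-WT. The knockout thus still made the transcript, so the RNA does not show whether the protein was lost. The rise was 1.66-fold, or 0.73 ± 0.07 on the log2 scale (± SE throughout), with an edgeR false discovery rate of 3.2e-24 in the authors' deposited table. Subtracting FH-WT from FH-5xA gave -0.017 ± 0.068, so total AGO2 RNA, which includes transcript from the knockout allele, differed between the lines by less than the SE.

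Of the 11 core silencing genes, AGO2 included, 5 fell and AGO2 alone rose. Under the F distribution DICER1 was still called lower, while AGO1 and AGO4 were not. DICER1, the nuclease that cuts the microRNA from its hairpin (chromosome 14, 95086228 to 95158010), went from 276 CPM in the knockout to 179 CPM in FH-5xA, a 1.54-fold fall. Parental cells had 188 CPM and FH-WT 207 CPM of DICER1. Its log2 fold change was -0.62 ± 0.08 in the authors' deposited table (edgeR false discovery rate 6.4e-13). AGO4, a sister Argonaute, fell from 24.6 to 18.1 CPM, which was -0.44 ± 0.11 in the authors' deposited table, and AGO1 fell from 125 to 104 CPM, at -0.27 ± 0.08. AGO3 was at -0.06 ± 0.07 there and was not called. In FH-WT over knockout, AGO4 was at -0.48 ± 0.11 and AGO1 at -0.27 ± 0.08.

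Both genes listed here for the phosphatase that acts on the mutated cluster were lower, though neither was called under the F distribution. Other subunits were not looked at. PPP6C, the catalytic subunit, fell from 85.7 to 64.1 CPM, with -0.42 ± 0.09 in the authors' deposited table (edgeR false discovery rate 5.5e-05). ANKRD52, the regulatory subunit, fell from 66.4 to 51.1 CPM, at -0.38 ± 0.13 and a false discovery rate of 0.041 in the authors' deposited table. CSNK1A1, the kinase, was 200 CPM in the knockout and 202 CPM in FH-5xA and was not called. None of the GW182 genes was called: the authors' deposited table gave -0.19 for TNRC6A, -0.02 for TNRC6B (0.03 after centring by GC content) and 0.21 for TNRC6C. Downstream, 0 of 15 genes of microRNA processing and loading and 1 of 27 genes of deadenylation, decapping and decay were called. That gene was DCP2, the decapping enzyme, which fell from 211 to 154 CPM.

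Textbook microRNA targets had more called falls than rises in each of the 7 families listed. Falls also outnumbered rises among all 11797 protein-coding genes, with 7.45% called lower and 4.73% higher. The seeds and some of the sites they match are shown first, though some listed genes held no site. The mature sequences, from RefSeq (GRCh38.p14), have the seed in capitals.
hsa-let-7a-5p: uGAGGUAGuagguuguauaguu
hsa-miR-17-5p: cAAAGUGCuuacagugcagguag
hsa-miR-19b-3p: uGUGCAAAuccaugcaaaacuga
hsa-miR-200b-3p: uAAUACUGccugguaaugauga
hsa-miR-141-3p: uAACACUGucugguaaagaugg
hsa-miR-21-5p: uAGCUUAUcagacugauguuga
The seeds of miR-200b and miR-141 belong to 1 family by name and differ within the seed, so they were searched as 2 sites.

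The sites below lie in the 3′ UTR of the principal transcript (GENCODE 29, GRCh38) of genes called lower. Capitals mark the 8-base site, which is made of 7 bases that match the seed and a final A.
HMGA2, let-7, chr12:65963299-65963320, plus strand: ccaacgttcgatttCTACCTCA
ACVR1C, let-7, chr2:157533821-157533842, minus strand: attttttttttgttCTACCTCA
ANKRD52, miR-17, chr12:56243058-56243079, minus strand: tctaaacatttaggGCACTTTA
TGFBR2, miR-17, chr3:30691853-30691874, plus strand: agccaataacatttGCACTTTA
ITGB8, miR-17, chr7:20410214-20410235, plus strand: ctagtgtcgttgtaGCACTTTA
ATXN1, miR-19, chr6:16304793-16304814, minus strand: aaagaaccttgcgaTTTGCACA
ZEB1, miR-200b, chr10:31527619-31527640, plus strand: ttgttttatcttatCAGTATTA
ZEB1, miR-141, chr10:31528783-31528804, plus strand: gagatttgatttaaCAGTGTTA
SEC23A, miR-200b, chr14:39032285-39032306, minus strand: ggttcttattgaaaCAGTATTA
JAG1, miR-21, chr20:10638257-10638278, minus strand: tagggagtattctaATAAGCTA
Counts of list members can be set beside the shares over all genes, 6.24% lower and 5.04% higher, and were not tested against them. A match is a description of the sequence and not a measured site of binding.

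Of 22 measured let-7 targets, 4 were called lower and 0 higher, with a list median of -0.09. HMGA2, a chromatin protein and the classic let-7 target, fell from 468 CPM in the knockout to 274 CPM in FH-5xA, and the parental and FH-WT levels were 245 and 334 CPM. Its change was -0.77 ± 0.08 in the authors' deposited table (edgeR false discovery rate 1.9e-18), and FH-5xA minus FH-WT was -0.28 ± 0.08 (adjusted p = 0.022 by the chi-square test of the derived difference, adjusted by the Benjamini-Hochberg method). ACVR1C, an activin receptor, fell from 6.32 to 3.93 CPM, and CDK6, a cell cycle kinase, from 309 to 218 CPM. The fourth was DICER1.

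Targets of the miR-17 family had 8 of 24 members lower and 0 higher, the highest share among the microRNA lists, with a median of -0.20. TP53INP1, a stress-induced autophagy and death gene, fell from 87.9 to 59.1 CPM, at -0.57 ± 0.10 in the authors' deposited table. The pocket proteins RB1 and RBL1, brakes on the cell cycle, stood at -0.36 ± 0.08 and -0.33 ± 0.08 in the authors' deposited table, and CCND1, cyclin D1, at -0.37 ± 0.09. ITGB8, an integrin subunit, fell from 4.17 to 2.89 CPM, while it was 1.36 CPM in FH-WT, and it was not called with fold changes centred by GC content (false discovery rate 0.063). For miR-19, 4 of 18 targets were lower and 0 higher (median -0.12), among them ATXN1, which fell from 48.0 to 34.0 CPM, and the nuclear import factor KPNA6, which fell from 229 to 190 CPM.

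For miR-200, 5 of 20 targets were lower and 3 higher, with a median of -0.16. FN1, fibronectin, fell from 16.9 to 9.98 CPM, at -0.76 ± 0.13 in the authors' deposited table. The splicing regulator QKI fell from 60.2 to 41.4 CPM, the secretory coat protein SEC23A from 269 to 211 CPM and the repressor ZEB1 from 32.1 to 26.1 CPM, although ZEB1 was not called with GC centring (false discovery rate 0.052). The 3 members called higher were GATA6, a transcription factor, at 0.46, the actin regulator FHOD1 at 0.28 and the EGFR inhibitor ERRFI1 at 0.24 in the authors' deposited table, and each of these holds an 8-base site for miR-200b or miR-141. For miR-21, 4 of 22 were lower and 0 higher (median -0.15), with the Notch ligand JAG1 at -0.35 ± 0.07 and the protease inhibitor TIMP3 at -0.40 ± 0.12 in the authors' deposited table. For miR-15/16, 3 of 24 were lower and 1 higher (median 0.02), and for miR-29, 3 of 19 were lower and 2 higher (median -0.02). Among the lower miR-29 members, CDC42 held no miR-29 site in the 3′ UTR of its principal transcript. The kind of site can be set beside the calls: for let-7, 2 of 10 with an 8-base and 2 of 10 with a 7-base site were lower, with medians of -0.064 and -0.162. The 7-base median was also the lower for miR-19, miR-15/16 and miR-29. For miR-17, miR-200 and miR-21 the 8-base median was the lower, so the order varied by list. The lists share members: TP53INP1, TGFBR2, CCND1 and CDK6 each stand in more than 1. Some are also shared with lists of other kinds, and their falls are counted in each. CDKN1A is also a p53 target, FN1 and ZEB1 are also mesenchymal genes, and ANKRD52 and DICER1 are also core silencing genes.

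Across the transcriptome, genes with more seed families in their longest annotated 3′ UTR were called lower more often. The 25 families counted are expressed in epithelia or widely, by textbook knowledge, since microRNA levels were not analysed here. Among 11540 protein-coding genes that averaged 1 CPM or more, of which 865 (7.5%) were called lower, the share lower was 4.21% of the 4914 genes with no 8-base site and 6.87% of the 2939 genes with sites for 1 family. Among 2555 genes with 2 or 3 families 280 were lower, among 827 genes with 4 or 5 the share was 14.6%, and among 305 genes with 6 or more 55 were lower. The median log2 fold change went from 0.037 through -0.0012, -0.043 and -0.073 to -0.081 over these groups. For FH-WT over the same knockout it went from 0.036 to -0.120, so the trend was not particular to FH-5xA. For knockout over parental cells it went from -0.072 to 0.219.

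Composition and UTR length moved with the number of sites. The median GC content of the transcripts fell from 52.3% to 40.3%, and the median UTR length went from 654 to 6658 bases. With fold changes centred by GC content, the medians ran from 0.00083 to -0.036. In the quintile of genes with the lowest GC content, 7.24% of 566 genes with no site were lower, beside 18.3% of 475 genes with sites for 4 or more families. In the quintile with the highest GC content the shares were 0.417% of 1440 genes and 3.03% of 33, the latter being 1 gene. The median log2 fold change there was 0.178 with no site and 0.242 with 4 or more families, so it did not fall with sites. In the quintile next below it the medians were 0.052 and 0.051. UTR length still differed between these groups, at 979.5 and 5461 bases in the lowest quintile.

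**Figure D2:**
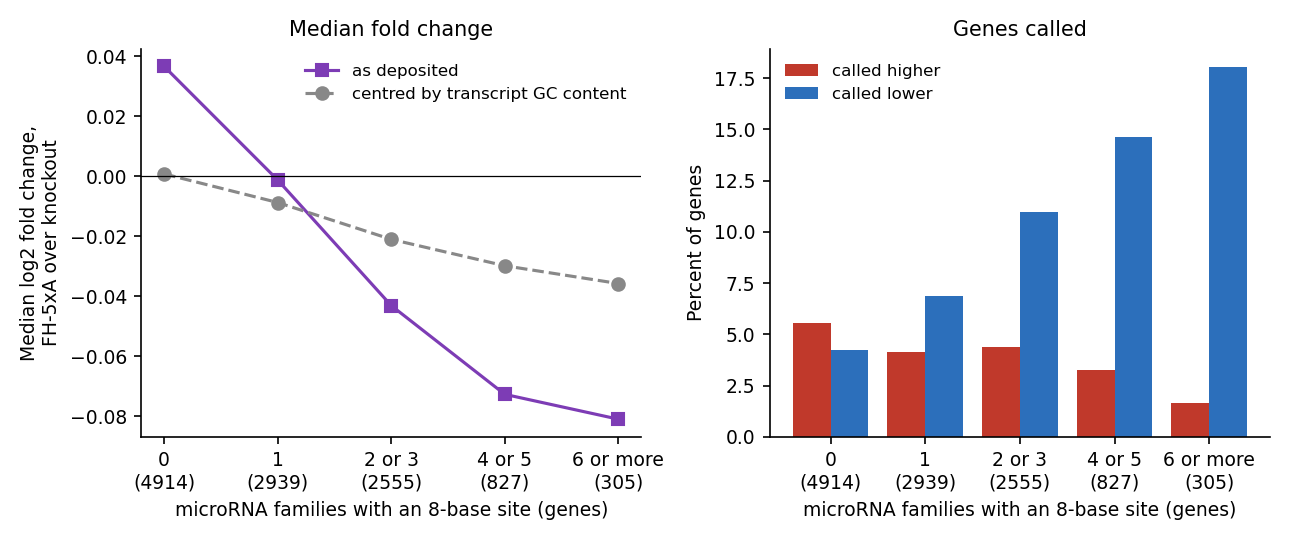
Genes grouped by the number of microRNA families with an 8-base site in their longest 3′ UTR (x axis, gene numbers in brackets). The left panel gives the median log2 fold change of FH-5xA over knockout, as deposited and centred by GC content, and the right panel the percent of genes called higher or lower; the share called lower goes from 4.21% with no family to 14.6% with 4 or 5.

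Medians for single families lay close to 0. The median log2 fold change of genes with an 8-base site was -0.082 for miR-221, -0.079 for miR-200b/c, -0.076 for miR-17 and -0.072 for miR-19, while it was 0.0013 for miR-24. Over the 25 families its median was -0.053, and the median over families of the share called lower was 12.5%. For 7 families that are specific to liver, muscle, neurons or blood (miR-122, miR-1, miR-133, miR-208, miR-9, miR-223 and miR-142) the median was -0.045. The median of their shares called lower was 11.4%. The ranges of both kinds overlap (-0.082 to 0.0013 and -0.063 to -0.0058). Genes with several kinds of site are counted in several families.

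Interferon-stimulated genes, which restrain viruses and sense viral RNA, were the list with the largest share of falls: 14 of 27 measured members were called lower and 0 higher, with a median of -0.37. IFIT2, which binds viral RNA (chromosome 10, 89283694 to 89309276), fell from 8.52 CPM in the knockout to 3.91 CPM in FH-5xA, beside 1.69 CPM in parental cells and 4.52 CPM in FH-WT. Its change was -1.12 ± 0.13 in the authors' deposited table (edgeR false discovery rate 1.8e-16), a 2.18-fold fall. Its neighbours IFIT3 and IFIT1 fell from 5.50 to 3.11 CPM and from 14.6 to 8.65 CPM. The RNA sensors DDX58 and IFIH1, which encode RIG-I and MDA5, fell from 34.4 to 22.0 CPM and from 14.4 to 8.97 CPM. SAMD9 fell from 141 to 91.6 CPM and PARP9 from 30.0 to 20.6 CPM. IFIT3, IFIT1, IFIH1 and ISG15 were singled out after their values were seen.

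Outside the list, TLR3, a sensor of double-stranded RNA, fell from 13.2 to 5.58 CPM and IFNE, an epithelial interferon, from 2.94 to 1.27 CPM. These were -1.24 ± 0.13 and -1.22 ± 0.26 in the authors' deposited table. ISG15, a ubiquitin-like protein, was at 0.15 ± 0.41 there and was not called. No member of the list differed between FH-5xA and FH-WT, and centring by GC content left the counts at 14 and 0.

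The interferon response element core, GAAANNGAAA on either strand, was looked up in the promoters of these genes to describe them. RefSeq promoters (250 bases before to 50 after the start, GRCh38.p14) were found for 21 of the 27 measured members. The core was present in 14 of these 21, in 9 of the 11 that were called lower and in 5 of the other 10, against 3.65% of 27305 promoters in all and 2.48% of the 9752 promoters of measured genes. The list was chosen for response to interferon, so a share above that of all promoters comes with that choice. It is no result about FH-5xA. The matches below have the core in capitals.
IFIT3, chr10:89327865-89327894, plus strand: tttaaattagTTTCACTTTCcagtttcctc
IFIT1, chr10:89392497-89392526, plus strand: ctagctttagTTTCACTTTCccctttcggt
IFIH1, chr2:162318686-162318715, minus strand: gaagagaatcGAAACAGAAAccaaagtcag
SAMD9, chr7:93118096-93118125, minus strand: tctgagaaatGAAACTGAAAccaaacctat
PARP9, chr3:122564322-122564351, minus strand: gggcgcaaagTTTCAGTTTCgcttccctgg
The element is known to be bound by interferon regulatory factors, and binding was not measured here. PARP9 and DTX3L are transcribed in opposite directions from this same stretch of chromosome 3 and share the match.

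NF-kB genes divided: 5 of 17 were lower and 1 higher, with a median of -0.07. BIRC3, an inhibitor of apoptosis, fell from 18.01 to 9.10 CPM, at -0.99 ± 0.10 in the authors' deposited table (edgeR false discovery rate 3.1e-21). The pathway's own inhibitor NFKBIA fell from 45.3 to 30.5 CPM, and the chemokine CXCL8 from 1.81 to 0.768 CPM. BCL3, a nuclear cofactor chosen after its value was seen, rose from 1.80 to 3.04 CPM; it was not called once fold changes were centred by GC content.

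Of 28 p53 targets, 10 fell and 0 rose, with a median of -0.13, and 8 fell with GC centring. CDKN1A, the p21 inhibitor of cyclin-dependent kinases, went from 348 CPM in the knockout to 259 CPM in FH-5xA, beside 84.6 CPM in parental cells, and its change was -0.42 ± 0.11 in the authors' deposited table. The death receptor FAS fell from 43.0 to 33.1 CPM, and SPATA18, a mitochondrial quality factor, from 4.51 to 3.04 CPM. TP53INP1 is also a member. The levels in FH-5xA of these 4 genes stayed above their parental levels.

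Mesenchymal genes, which mark cells that have left the epithelial state, fell in 8 of 17 measured members and rose in 1, with a median of -0.30. NRP1, which binds semaphorins and VEGF (chromosome 10, 33177492 to 33336262), fell from 255 to 192 CPM, at -0.41 ± 0.07 in the authors' deposited table, and was 5.80 CPM in parental cells. The collagen crosslinker LOXL4 fell from 10.9 to 7.53 CPM, and VIM, the vimentin filament gene, from 13.9 to 9.23 CPM. The laminin LAMA4 went the other way, from 12.6 to 19.3 CPM, at 0.61 ± 0.09 in the authors' deposited table. VIM was chosen after its value was seen.

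Epithelial genes showed 4 rises and 1 fall among 27, with a median of 0.08, but 2 rises and 3 falls after centring by GC content, so the direction of this list depends on the centring. The clathrin adaptor AP1M2 rose from 20.5 to 27.0 CPM and the splicing factor ESRP1 from 93.1 to 114 CPM, and both were also called with GC centring. EHF, an epithelial ETS factor, fell from 6.38 to 2.83 CPM, at -1.17 ± 0.13 in the authors' deposited table. Parental cells had 1.32 CPM of EHF.

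The list for ATF4 and the unfolded protein response, whose genes supply amino acids and chaperones under stress, had 7 rises and 0 falls among 29 members, with a median of 0.19 and 6 rises with GC centring. PHGDH, the first enzyme of serine synthesis, rose from 90.3 to 121 CPM and was 248 CPM in parental cells, with 0.42 ± 0.07 in the authors' deposited table. Asparagine synthetase, ASNS, rose from 166 to 228 CPM, with 404 CPM in parental cells and 284 CPM in FH-WT. The amino acid transporter SLC7A5 rose from 130 to 189 CPM. Cholesterol and fatty acid synthesis genes rose in 7 of 30 members and fell in 0 (median 0.16, 5 rises with GC centring). Fatty acid synthase, FASN, rose from 260 to 500 CPM, at 0.94 ± 0.21 in the authors' deposited table, and squalene epoxidase, SQLE, rose from 55.8 to 72.9 CPM.

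E2F cell cycle genes rose in 4 of 30 members and fell in 0, with a median of 0.13. They were the replication factor CDC45 at 0.29 ± 0.07, the cyclin CCNE2 at 0.32 ± 0.10, thymidylate synthase TYMS at 0.26 ± 0.08 and the polymerase POLE at 0.22 ± 0.08 in the authors' deposited table; POLE was not called with GC centring (false discovery rate 0.22). Mitosis genes had 1 rise in 25 (MAD2L1), and replication-dependent histones had none called in 18, where reads of near-identical copies may be split. Immediate early genes rose in 5 of 21 and fell in 1, or 3 and 2 with GC centring. IER2 rose from 24.9 to 39.7 CPM and EGR1 from 8.70 to 14.9 CPM, and the antiproliferative BTG2 fell from 78.1 to 60.3 CPM.

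WNT targets divided, with 2 rises and 4 falls among 16. DKK1, a secreted WNT inhibitor (chromosome 10, 52314296 to 52318042), rose from 282 CPM in the knockout to 580 CPM in FH-5xA, beside 254 CPM in parental cells and 437 CPM in FH-WT. Its change was 1.04 ± 0.11 in the authors' deposited table (edgeR false discovery rate 1.7e-17). LNCAROD, a noncoding RNA named as a regulator of DKK1 and lying near it (52450874 to 52755409), rose from 9.23 to 27.3 CPM. The falls in the authors' deposited table included the receptor ligase RNF43 at -0.48 ± 0.08, AXIN2 at -0.55 ± 0.11 and the ETS factor ETS2 at -0.44 ± 0.08. Hypoxia and glycolysis genes had 3 falls and 1 rise in 28, with NDRG1 falling from 125 to 87.9 CPM and the glucose transporter SLC2A1 from 170 to 130 CPM. Each remaining list had at most 4 called members, among them YAP genes (1 higher and 3 lower of 19), cytosolic ribosomal proteins (2 and 1 of 30) and nuclear OXPHOS subunits (3 and 0 of 29).

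**Figure D3:**
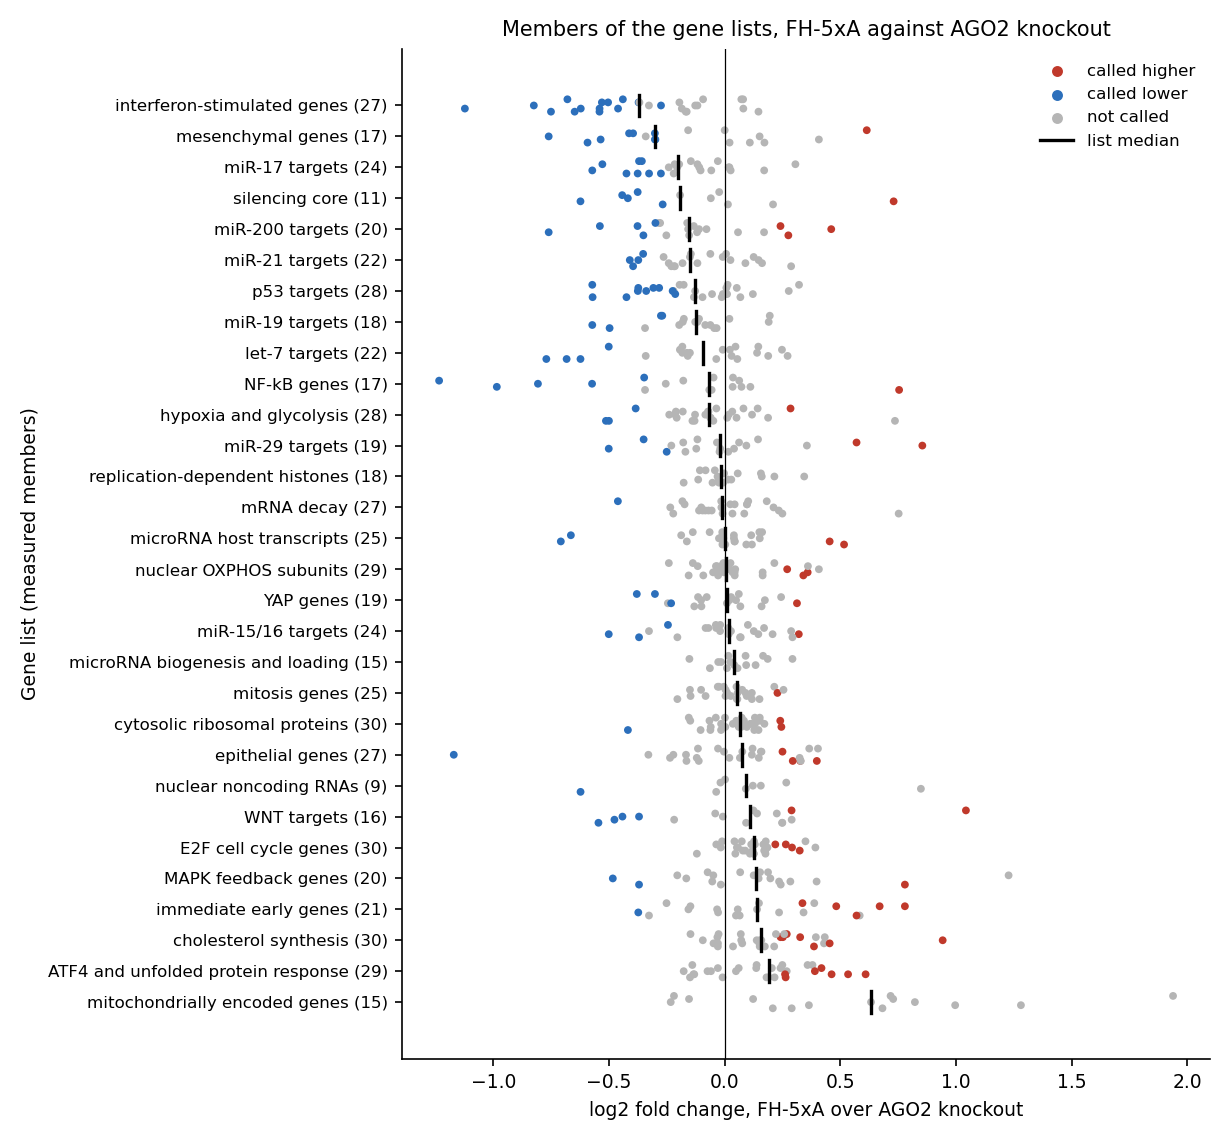
Every measured member of each gene list is a point at its log2 fold change of FH-5xA over AGO2 knockout (x axis), coloured by whether it was called higher, lower or not; the black bar is the list median, and lists are ordered by it with member numbers in brackets. Interferon-stimulated genes sit lowest with a median of -0.37 and mitochondrially encoded genes highest at 0.63, the latter with 0 called.

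The largest falls were in genes of low or moderate expression. The genes named come from the 15 largest in each direction among those called whose mean reached 1 CPM. DCLK1, a microtubule kinase known as a marker of tuft cells, fell from 1.65 CPM in the knockout to 0.505 CPM in FH-5xA, a 3.27-fold fall. ANGPT2, an antagonist ligand of the TIE2 receptor, fell from 12.6 to 4.42 CPM, which was -1.52 ± 0.12 in the authors' deposited table. CPA4, a carboxypeptidase (chromosome 7, 130293134 to 130324180), fell from 58.9 to 20.9 CPM, beside 3.53 CPM in parental cells and 20.1 CPM in FH-WT. It had the lowest false discovery rate of the genes named here, 2.4e-41, in the authors' deposited table. The transmembrane collagen COL13A1 fell from 6.46 to 2.35 CPM, the calcium sensor VSNL1 from 13.3 to 5.38 CPM and the peptidase DPP4 from 15.97 to 6.99 CPM. The others, between -1.13 and -1.30 in the authors' deposited table, were the small nucleolar RNA SNORA53, AC008957.3, the iron exporter SLC40A1 and the G protein subunit GNG2, together with TLR3, IFNE, EHF and IFIT2 described above.

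Among the rises, FP671120.4, a noncoding gene on chromosome 21, was fitted at 0.215 CPM in the knockout and 26.5 CPM in FH-5xA, and its fitted value of 6.95 ± 1.22 in the authors' deposited table starts near 0 and is no measure of size. It was 155 CPM in FH-WT and 0.126 CPM in parental cells. RNF208, a ubiquitin ligase, rose from 0.899 to 3.04 CPM (3.39-fold) and LNCAROD 2.95-fold. ATN1, a transcriptional corepressor, rose from 12.6 to 32.2 CPM, and PRR12 from 7.05 to 17.1 CPM. BICRA, a subunit of a SWI/SNF remodeler, rose from 1.35 to 3.30 CPM, the growth factor IGF2 from 1.18 to 2.86 CPM and the kinase WNK4 from 0.989 to 2.36 CPM. VGF, FCGBP, EYS, PRR36, AC131649.2, AC111170.3 and SLC25A6P2 rose by 1.21 to 1.51 on the log2 scale in the authors' deposited table. SLC25A6P2 is a processed pseudogene and can share reads with its parent gene.

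**Figure D4:**
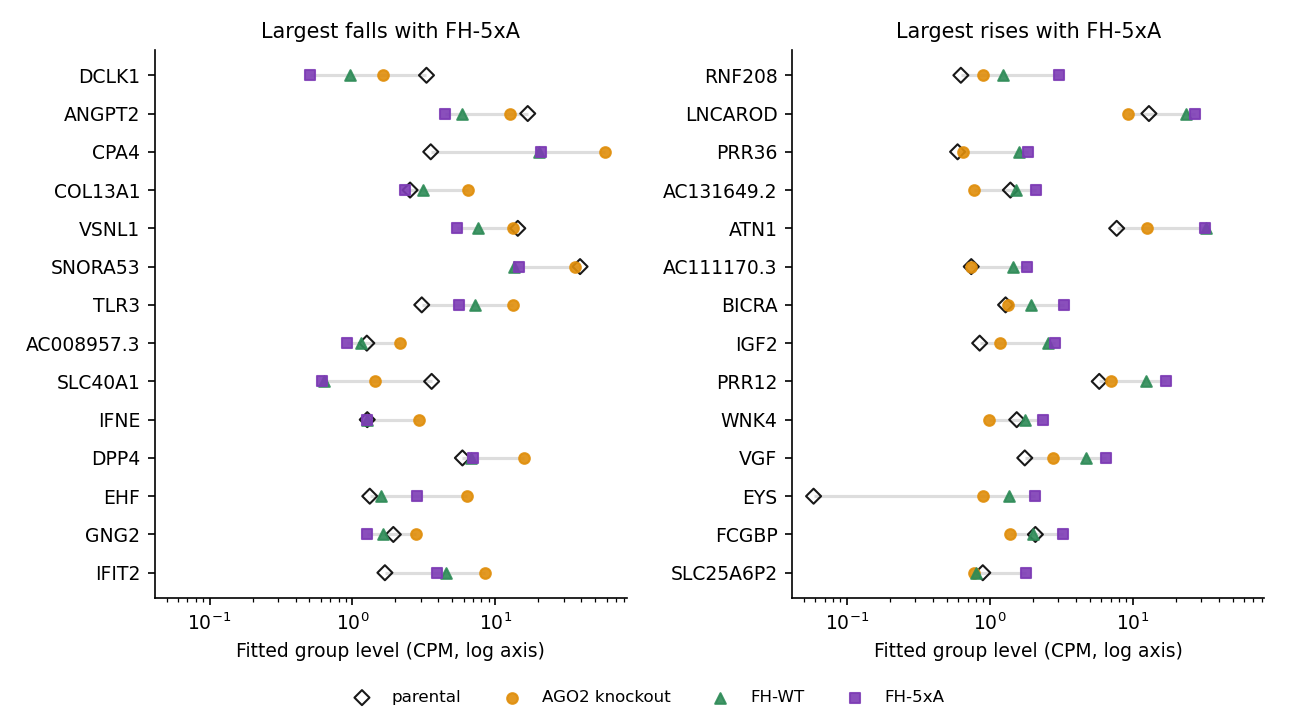
Fitted group levels (CPM, log axis) of the genes named for their large called changes, falls on the left and rises on the right, in parental, AGO2 knockout, FH-WT and FH-5xA cells; each symbol is 1 group of 3 libraries and the line spans the groups. CPA4 stands at 58.9 CPM in the knockout and 20.9 CPM in FH-5xA, and FP671120.4 is left out because its knockout level is near 0.

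Genes called higher and genes called lower differed in composition. They also differed in median expression, at 3.47 and 5.18 log2 CPM, and in median transcript length, at 3320 and 4421.5 bases. The median GC content of the longest transcript was 55.7% for genes called higher and 43.5% for genes called lower, against 47.5% for all genes. In the decile of genes with the lowest GC content, 20 were called higher and 134 lower, and in the decile with the highest, 168 were higher and 4 lower. The median log2 fold change went from -0.065 in the lowest decile to 0.233 in the highest, while for FH-WT over the same knockout libraries it went from -0.034 to 0.047. Over all genes Spearman's rho between GC content and fold change was 0.37 for FH-5xA and 0.12 for FH-WT, as a description across genes of the same libraries. For FH-5xA minus FH-WT it was 0.28. Whether this trend arose in the cells or in the libraries was not tested. With fold changes centred by GC content, 1293 genes were called, 509 higher and 784 lower, and 1127 of them were among the 1699. Of the 15 largest rises, SLC25A6P2 was not called under that centring, and each of the falls named for its size was.

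**Figure D5:**
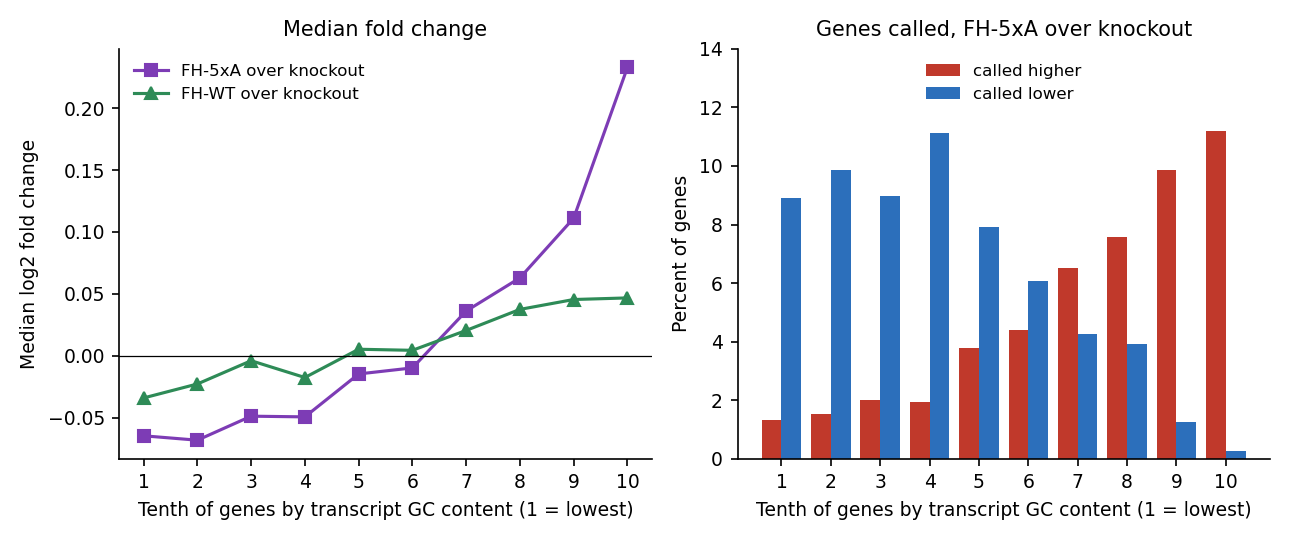
Genes in 10 equal groups by the GC content of their longest transcript (x axis, 1 lowest). The left panel gives the median log2 fold change over AGO2 knockout for FH-5xA and FH-WT, and the right panel the percent of genes called higher (red) or lower (blue) with FH-5xA; the FH-5xA median goes from -0.065 to 0.233.

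Calls by gene class are set beside the shares over all genes, 5.04% higher and 6.24% lower, with no test of a difference. Of 11797 protein-coding genes 558 were higher and 879 lower, whereas 33 antisense genes were higher and 7 lower of 510, and 28 long intergenic RNAs were higher and 7 lower of 456. The shares called higher were 6.47% of antisense and 6.14% of long intergenic genes, and the shares called lower 1.37% and 1.54%. Sense intronic genes had 7 higher and 0 lower of 114, and processed pseudogenes 69 and 33 of 1424. The median log2 fold change was 0.10 for antisense and 0.09 for sense intronic genes, whose median GC content was 48.1% and 41.6%. The library kit keeps strand, but the use of strand in counting is not given, so antisense and intronic genes cannot be told apart from the genes they overlap.

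Set directly against wild-type AGO2, the mutant line had more RNA of 7 epithelial genes and less of 6 mitosis genes and 5 genes of the ATF4 response. RNAs of the mitochondrial genome made up 3.91% of the fitted total in FH-WT and 1.99% in FH-5xA. Their list median difference was -1.10, but 0 of the 15 listed passed the test of the difference given below. Their part in the differences between the lines was not tested. Both lines are compared with the same knockout libraries, so the difference was derived from the 5 tables and tested by itself. It passed in 620 of 15069 genes (4.11%, chi-square test, Benjamini-Hochberg adjusted p under 0.05), 299 higher and 321 lower in FH-5xA. With an F distribution 0 genes passed, although 1891 had an unadjusted p under 0.05 (2908 with the chi-square distribution). With variances summed from both comparisons, which gives no credit for the shared knockout, 13 passed. Members of lists named below were picked by this test after their values were seen.

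Of 27 epithelial genes, 7 were higher in FH-5xA than in FH-WT and 0 lower. CDH1, E-cadherin, was 25.0 CPM in the knockout, 15.8 CPM in FH-WT and 21.3 CPM in FH-5xA, a difference of 0.43 ± 0.10. GRHL2, a factor of epithelial identity, was 3.56 CPM in FH-WT and 5.40 CPM in FH-5xA, and ELF3 was 22.9 and 31.4 CPM. The other 4 were EHF, AP1M2, ESRP1 and TJP3. The median GC content of this list was 56.2%, against 47.5% for all genes. With GC centring CDH1, EHF, AP1M2 and ESRP1 still passed, and a count for the list under that centring was not made. On the mesenchymal side VIM was 14.9 CPM in FH-WT and 9.23 CPM in FH-5xA (difference -0.69 ± 0.15), and ZEB1 was 35.6 and 26.1 CPM (-0.45 ± 0.09), while LOXL4 was higher in FH-5xA, at 7.53 CPM against 5.02 CPM.

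Mitosis genes were lower in FH-5xA than in FH-WT in 6 of 25, with 0 higher. NUSAP1, a spindle protein, was 306 CPM in FH-WT and 239 CPM in FH-5xA, close to the 244 CPM of the knockout, and PTTG1, securin, was 156 and 114 CPM. ATF4 response genes were lower in 5 of 29: the glutathione-degrading enzyme CHAC1 was 9.74 CPM in FH-WT and 5.53 CPM in FH-5xA, and TRIB3 was 49.8 and 38.1 CPM. Histones were lower in 3 of 18. Metallothioneins, which bind zinc and copper, gave 3 of the 8 largest differences toward lower RNA in FH-5xA: MT2A stood at 121 CPM in the knockout, 340 CPM in FH-WT and 137 CPM in FH-5xA, and MT1E at 199, 448 and 182 CPM. For these 2 genes FH-5xA against knockout was 0.17 ± 0.30 and -0.13 ± 0.17 in the authors' deposited table, and neither was called.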

How the data were processed

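Total RNA from 12 libraries (4 groups of 3) was depleted of ribosomal RNA and made into stranded libraries, per the labels' protocols. The submitters' processing notes name TopHat2 2.0.12, Cufflinks 2.2.1, featureCounts 1.4.6, edgeR 3.8.6 and hg38; the annotation and filters are not given. The deposited values are 5 comparison tables with log2 fold changes, mean log2 CPM, a likelihood ratio score and p-values with false discovery rates, made by the authors with edgeR, per the file headers. Depth per library is unknown, and no per-library value was used.

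Each SE was computed as the absolute log2 fold change over the square root of the score. FH-5xA minus FH-WT is the difference of the changes against knockout, with its variance solved from the 5 tables by non-negative least squares, tested by chi-square and adjusted over 15069 genes. On simulated data for this difference over 15074 genes, 63.0% of changes of 0.5 and 88.0% of changes of 1.0 (log2) were recovered. Of 160 genes called there, 9 were false. The simulation assumed equal depths and took the spread between libraries as known, so it cannot decide between the chi-square and F distributions. Fitted levels assume that the 4 groups average to the deposited mean. GC content and UTRs came from GENCODE 29, and GC centring used 50 bins of genes. Named were the silencing core, the 15 largest called changes per direction with a mean of at least 1 CPM, up to 4 called members per list by smallest p, and the 8 largest differences per direction from FH-WT; 1 gene is not reported here. The members and lists were chosen with earlier results of these data known. Alternatives were a stricter threshold, an F distribution, median and GC centring, other gene filters and other UTR choices. Python 3.11.15, numpy 2.4.6, pandas 2.3.3 and scipy 1.17.1 were used.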

Additional observations from a re-analysis of the deposited data

Results flagged for a closer look

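The 2 restored lines differed, by the chi-square test of FH-5xA minus FH-WT over all genes (Benjamini-Hochberg adjusted p under 0.05), in 16 genes taken as the 8 largest differences in each direction. All values are on the log2 scale and rest on 3 libraries a group. Higher in FH-5xA were ZNF615 at 4.64, which was fitted near 0 in every group but the parental cells and so has no interpretable size, RNY1 at 2.48, HMGN2P4 at 2.004, NPW at 1.89, RNF208 at 1.31, RNU5B-1 at 1.31, MTFP1 at 1.23 and ITGB8 at 1.09.

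Lower in FH-5xA were MT2A at -1.32, MT1E at -1.30, SNORD11B at -1.16, RNU4ATAC at -1.15, AC025458.1 at -1.12, ATP5MDP1 at -0.99, CSTA at -0.97 and MT1X at -0.89. RNY1, RNU5B-1, SNORD11B and RNU4ATAC are short structured RNAs, and HMGN2P4 and ATP5MDP1 are named as pseudogenes, whose reads may be shared with parent genes. HMGN2P4 and RNF208 no longer passed after centring by GC content (adjusted p = 0.055 and 0.12).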

How the results depend on the processing

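With a false discovery rate under 0.01 in place of 0.05, 895 genes were called in FH-5xA against knockout and 183 differed between FH-5xA and FH-WT. With an F distribution the counts were 92 and 0, and with variances summed from both comparisons 13 differed. Median centring gave 1752 and 674, GC centring 1293 and 442, and leaving out chromosome 7 and mitochondrial genes 1606 and 590. A minimum of 1 CPM gave 1658 against knockout. GC centring moved the share of higher calls from 44.7% to 39.4%. It moved the median log2 fold change of genes with 7- or 8-base seed sites from -0.042 to -0.018, and turned TNRC6B, not called, to 0.033. Of 122 named genes, 15 lost the call under GC centring and 90 under the F distribution, which left 27 called, among them LNCAROD and FCGBP as the only ones of the 15 largest rises. Counts of called members moved by over 1.5 times in 27 of 30 lists under the F distribution and in 3 under GC centring. The cause of these shifts was not tested. No paired analysis was possible because the tables hold group comparisons and no value per library, so fits to counts and fits without a replicate were not run either.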
